A study of Homo sapiens with 6 samples.

Results

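Antisense RNAs are transcripts read from the opposite strand of a named gene, and they carry that gene's symbol followed by AS and a number. Of 1221 antisense-named genes in the expression table, 124 were expressed in MDA-MB-231 cells and are described here with the sense gene in their name. They were chosen by level, as the antisense-named genes that averaged 1 FPKM or more (fragments per kilobase of gene, normalized for sequencing depth) over 6 RNA-sequencing libraries, so their levels are given as a description without a test. A further 719 antisense-named genes were above 0 but under that mean, and 378 were at 0 in every library. The cell line, MDA-MB-231, was established from a human breast adenocarcinoma. The libraries came from cells that the sample labels call SCR, with genotype WT, and that the study's methods describe as carrying a non-targeting shRNA, a background that both groups share. There were 3 libraries of cells at 0 Gy and 3 of cells collected 24 h after 10 Gy from a sealed cesium source. No source used here says whether the 3 libraries of a group came from separate cultures, so p-values measure the spread between these libraries, which may be technical.

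A natural antisense RNA can overlap the sense gene head to head (5′ ends nearest), tail to tail (3′ ends nearest) or lie inside it. Head to head pairs often start from one stretch of DNA that promotes transcription in both directions. Antisense RNAs are known to act on the neighbouring gene by several routes, among them transcription through its promoter, pairing with its mRNA and recruitment of chromatin regulators, and many have no known function. Most are long non-coding RNAs, and unstable ones are cleared in the nucleus by the RNA exosome.

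By the gene spans of GENCODE 29 on GRCh38, which equal those in the table for all 58735 genes, 60 of the 124 antisense RNAs were head to head with the sense gene, 28 were tail to tail, 28 lay inside the sense span, 7 contained the sense gene and 1 was farther away. Pairs that overlapped in part or lay within 5000 bases were classed by whichever ends were nearer, so those ends need not be close. The 5′ ends of head to head pairs were a median of 444 bases apart, but 21038 at KTN1-AS1. LRRC75A-AS1 and LRRC75A, classed tail to tail, overlap by 37102 bases. The annotation lists 88 of the 124 as antisense, 16 as lincRNA and 15 as processed transcripts, with NCBP2-AS2 as the 1 protein-coding member. Exons of 91 members shared at least 1 base with an exon on the opposite strand, with a median of 8.10% and a maximum of 67.8% of a member's exon bases over all 124. Whether the reads were counted by strand is not given in the sources used here. Without strand, reads from a gene and its antisense partner cannot be told apart where they overlap. In bulk RNA, fewer cells that express a gene and less of its RNA per cell cannot be told apart either. The libraries held between 15643641 and 28861781 reads on genes, recovered from the FPKM values. As markers of this line, which is mesenchymal and lacks hormone receptors, VIM was between 248 and 312 FPKM, ESR1 at no more than 0.0169 FPKM and PGR at 0 in all 6 libraries.

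For 6 of the head to head pairs described below, bases before the RefSeq start of 1 or both genes are shown, to give the sequence near the 5′ ends. The pairs were picked after their values were seen, as ones that moved together, in opposite directions or in ratio, and for the short gap at NCBP2. The other head to head pairs are described without sequence. The windows are those of RefSeq on GRCh38.p14, which had one for 88 of the 124 members and 107 of the 123 sense genes. Each run is the longest stretch, within the 250 bases before the start, that holds no exon of a protein-coding transcript. It is written 5′ to 3′ on the strand of the gene named. Of the 8 stretches, those of GABPB1, TMPO, TMPO-AS1 and TGFB2 lie wholly inside the span of the other gene of the pair, 168 of the 250 bases at ZNF528 and 182 of the 250 at TRIM52 do so, and those of TGFB2-AS1 and NCBP2 lie outside it. RefSeq starts can differ from the GENCODE 29 gene starts used for the spans and distances, by 899 bases at TGFB2, 210 at GABPB1, 196 at TMPO-AS1 and no more than 69 at the other 5. Capitals mark matches on either strand to CCAAT, to the GC box GGGCGG, to CGGAAG (a core of sites bound by ETS factors) or to TTTGAA (the core of the cell cycle element CHR).
GABPB1, chr15:50355409-50355448, minus strand: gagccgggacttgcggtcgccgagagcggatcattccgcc
TMPO, chr12:98515323-98515511, plus strand: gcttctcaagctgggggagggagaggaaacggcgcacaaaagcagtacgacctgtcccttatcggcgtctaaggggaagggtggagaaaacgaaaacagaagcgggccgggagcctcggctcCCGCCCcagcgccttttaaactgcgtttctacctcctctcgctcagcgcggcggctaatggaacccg
TMPO-AS1, chr12:98516227-98516476, minus strand: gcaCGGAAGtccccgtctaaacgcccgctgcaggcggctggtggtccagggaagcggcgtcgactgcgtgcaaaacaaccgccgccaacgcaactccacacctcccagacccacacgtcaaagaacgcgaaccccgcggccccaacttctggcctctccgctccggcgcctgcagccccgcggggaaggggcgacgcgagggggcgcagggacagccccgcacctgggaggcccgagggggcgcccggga
TGFB2, chr1:218345086-218345335, plus strand: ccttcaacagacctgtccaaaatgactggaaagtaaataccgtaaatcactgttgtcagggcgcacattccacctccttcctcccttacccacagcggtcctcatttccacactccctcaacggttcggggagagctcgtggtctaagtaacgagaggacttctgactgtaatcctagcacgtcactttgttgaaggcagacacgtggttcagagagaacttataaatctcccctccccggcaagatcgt
TGFB2-AS1, chr1:218345679-218345928, minus strand: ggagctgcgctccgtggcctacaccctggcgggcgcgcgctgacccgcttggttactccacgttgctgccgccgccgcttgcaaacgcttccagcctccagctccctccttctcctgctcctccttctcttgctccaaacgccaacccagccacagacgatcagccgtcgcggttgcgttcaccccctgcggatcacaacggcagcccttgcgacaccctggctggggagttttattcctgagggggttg
ZNF528, chr19:52397599-52397848, plus strand: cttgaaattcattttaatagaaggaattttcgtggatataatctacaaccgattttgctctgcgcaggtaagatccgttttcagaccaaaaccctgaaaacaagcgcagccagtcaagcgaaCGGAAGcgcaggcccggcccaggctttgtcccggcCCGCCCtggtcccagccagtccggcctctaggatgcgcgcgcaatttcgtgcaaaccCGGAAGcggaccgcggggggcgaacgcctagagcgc
TRIM52, chr5:181261144-181261393, minus strand: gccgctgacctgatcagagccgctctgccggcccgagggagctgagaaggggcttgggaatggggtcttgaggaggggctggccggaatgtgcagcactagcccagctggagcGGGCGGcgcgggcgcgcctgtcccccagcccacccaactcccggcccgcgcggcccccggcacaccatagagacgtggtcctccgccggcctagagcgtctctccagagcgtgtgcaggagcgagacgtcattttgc
NCBP2, chr3:196942598-196942622, minus strand: gacacgCCGCCCtcggATTGGgtcc
The gap between NCBP2 and NCBP2-AS2, whose 5′ ends are 26 bases apart, held a GC box and a CCAAT match, while the window of ZNF528 held 2 ETS matches and a GC box. No match lay in the stretches of GABPB1, TGFB2 and TGFB2-AS1. Over all 35116 windows of 250 bases, 32.0% held CCAAT, 42.6% GGGCGG, 16.5% CGGAAG and 13.3% TTTGAA. Among the 48 head to head members with a window the shares were 27.1%, 47.9%, 18.8% and 6.25%.

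The expressed antisense RNAs were mostly low. Their means had a median of 1.86 FPKM and ran from 1.00 to 49.8 FPKM. In all, 70 were under 2 FPKM, 20 were at 5 FPKM or above and 7 at 10 FPKM or above. LRRC75A-AS1, also known as the small nucleolar RNA host gene SNHG29, was the highest, with 51.9, 52.5 and 51.0 FPKM at 0 Gy and 47.5, 47.4 and 48.6 FPKM at 10 Gy. FGD5-AS1 followed with 38.3, 39.6 and 38.8 FPKM at 0 Gy and 35.0, 33.3 and 34.4 FPKM at 10 Gy. In both, each irradiated library lay under each control library. NCBP2-AS2 (22.8, 19.6 and 20.3 against 16.0, 15.5 and 18.2 FPKM), AFAP1-AS1 (16.7, 17.9 and 16.0 against 14.9, 14.5 and 15.0 FPKM) and TGFB2-AS1 (13.1, 15.9 and 13.4 against 10.8, 10.1 and 11.0 FPKM) also separated by group. Of the 10 highest members, 4 were not called after irradiation. The groups overlapped for SLCO4A1-AS1 (14.7 to 17.9 against 14.2 to 15.4 FPKM), WAC-AS1 and ZBED5-AS1, while those of ADGRD1-AS1 lay next to each other (8.63 to 11.1 against 7.49 to 8.62 FPKM, limma adjusted p = 0.11).

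**Figure D1:**
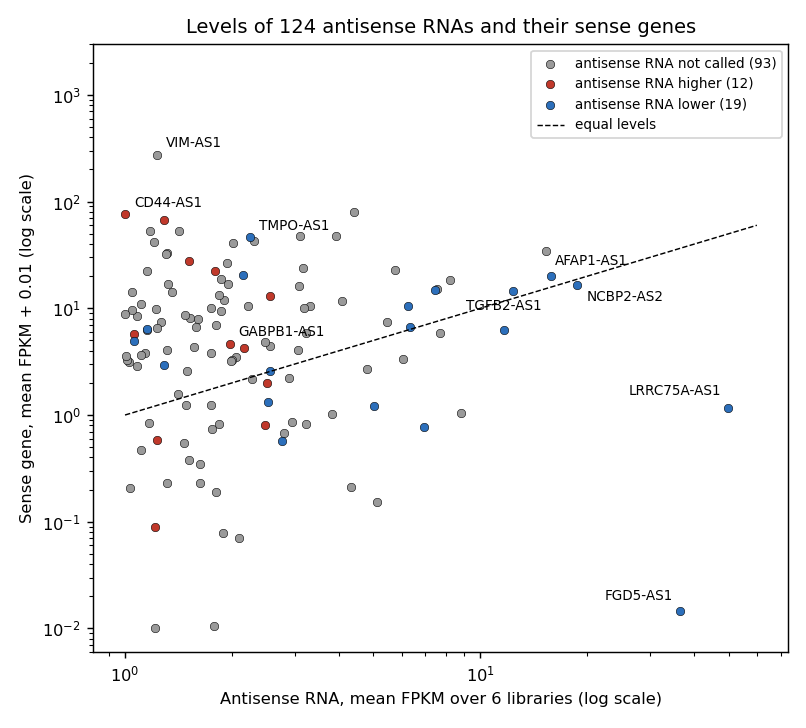
Mean FPKM of each antisense RNA (x axis, log scale) against its sense gene (y axis, FPKM + 0.01, log scale), 1 point per pair, coloured by the call after 10 Gy, with a dashed line at equal levels. In 82 of the 124 pairs the sense gene lies above the line, and FGD5-AS1 and LRRC75A-AS1 lie far under it.

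Sense genes were usually the higher of the pair on this per-length scale, with a median of 5.88 FPKM, and exceeded the antisense RNA in 82 of 124 pairs. In 22 pairs the sense gene was at least 10 times higher. VIM, which encodes the intermediate filament vimentin, was 225 times the level of VIM-AS1, and CD44, the hyaluronan receptor, was 75.6 times the level of CD44-AS1. The antisense RNA was the higher in 42 pairs and at least 10 times higher in 9. FGD5, an exchange factor best known from endothelial cells, was listed at 0 in 5 libraries and at 0.0271 FPKM in the sixth beside a highly expressed FGD5-AS1. In all, 26 sense genes were under 1 FPKM and were not tested.

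At the lower edge of the set, the means of MYLK-AS1, CD44-AS1 and EP300-AS1 were 1.006, 1.003 and 1.002 FPKM, and those of ATP2B1-AS1, DNAJC9-AS1 and SDCBP2-AS1, just outside it, were 0.9996, 0.987 and 0.979 FPKM. A mean over 6 libraries can pass through 1 group alone. Of the 124 members, 9 were under 1 FPKM at 0 Gy and 8 were under it at 10 Gy, which leaves 107 at 1 FPKM or above in both groups. Of the 9, LAMA5-AS1, CD44-AS1, TRAPPC12-AS1 and TP73-AS1 were called higher after 10 Gy, and of the 8, SBF2-AS1, RGMB-AS1 and ZBTB11-AS1 were called lower. These 7 entered the set only through the group in which they were high, so they had to differ, and their changes are given as a description.

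Comparing 10 Gy with 0 Gy asked how the irradiated cells' transcripts differed after 24 h. Of the 124 antisense RNAs, 12 rose and 19 fell. The larger rises were in LAMA5-AS1, UCKL1-AS1, RBM12B-AS1, CD44-AS1 and GABPB1-AS1, and the larger falls in SERTAD4-AS1, PRRT3-AS1, TNFRSF10A-AS1, NRSN2-AS1 and RGMB-AS1. All 12128 genes that averaged 1 FPKM or more entered the limma test on log2(FPKM + 1), and a gene was called at a Benjamini-Hochberg adjusted p under 0.05. Over all genes tested, 35.6% were called, 11.9% higher and 23.7% lower. Among the antisense RNAs, 25.0% were called, 9.68% higher and 15.3% lower, and their median log2 change was -0.02 against -0.04 over all genes. In all 31 called members the groups did not overlap. Counting every member whose groups did not overlap, called or not, gave 52 of 124 (41.9%), against 51.9% of all genes. With 3 libraries per group, changes near this size rest on few reads: the median member had a mean of 98.8 reads per library, and 24 members had under 20 reads in some library.

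**Figure D2:**
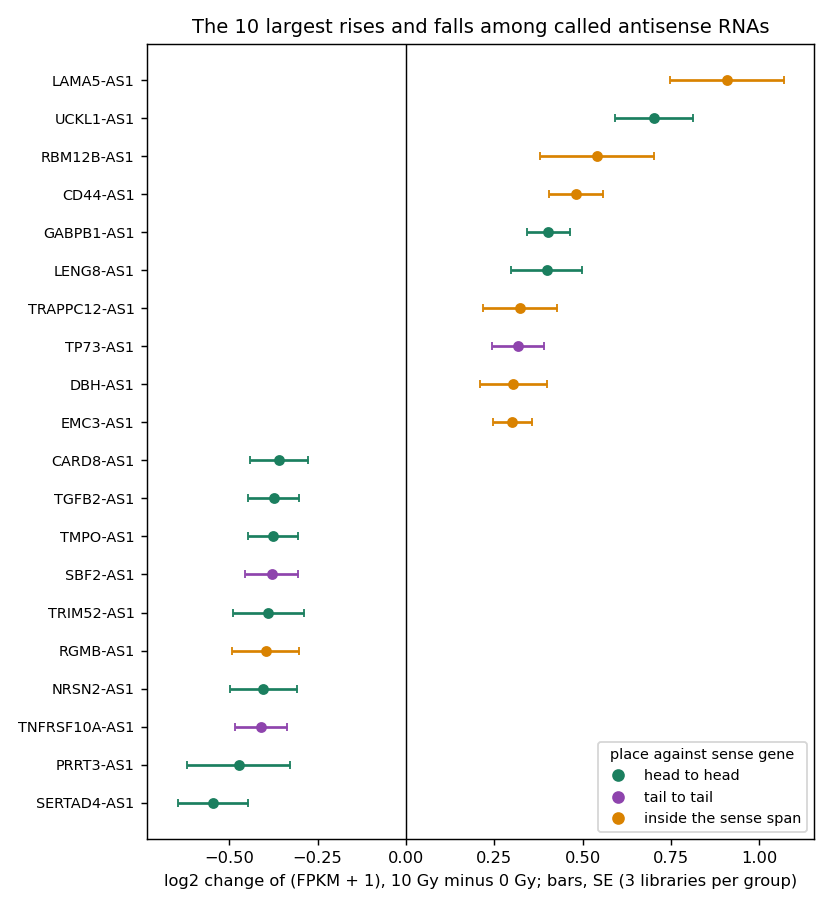
Log2 change of (FPKM + 1), 10 Gy minus 0 Gy, of the called antisense RNAs with the 10 largest rises and the 10 largest falls (x axis), 1 row per gene, with bars for the SE and colours for the place against the sense gene. LAMA5-AS1 lies at 0.91 and SERTAD4-AS1 at -0.55, and of the 7 RNAs shown that lie inside a sense gene 6 are right of 0.

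The direction of the balance rested on how the libraries were scaled. The sum of FPKM was 1.03 to 1.07 times the geometric mean of the 6 libraries in controls and 0.946 to 0.976 times in irradiated libraries, and bringing all libraries to the same sum (TPM) moved the median log2 change of all genes from -0.04 to 0.07. With that scaling 18 antisense RNAs were higher and 11 lower. Upper quartile scaling gave the same counts, median of ratios gave 16 and 12, and scaling the recovered reads by their total gave 21 and 12. Over all 12128 genes tested, TPM gave 3127 higher and 1071 lower, and upper quartile scaling 2556 and 1444. Median of ratios gave 1945 and 2047 over all genes, and total reads 2780 and 1884. Among the antisense RNAs, 10 of the 12 risers and 11 of the 19 that fell kept their direction and call throughout. That covers the deposited values, a pseudocount of 0.1 and each of these scalings. The 10 were CD44-AS1, DBH-AS1, EMC3-AS1, GABPB1-AS1, LAMA5-AS1, LENG8-AS1, RBM12B-AS1, TP73-AS1, UCKL1-AS1 and ZNF528-AS1. The 11 were CARD8-AS1, NCBP2-AS2, NRSN2-AS1, RGMB-AS1, SBF2-AS1, SERTAD4-AS1, TGFB2-AS1, TMPO-AS1, TNFRSF10A-AS1, TRIM52-AS1 and ZFPM2-AS1. In these lists CD44-AS1, LAMA5-AS1, TP73-AS1, RGMB-AS1 and SBF2-AS1 were in the set only through the group in which they were high, so their kept calls are a description. Among the 107 members at 1 FPKM or above in both groups, 8 rose and 16 fell. Leaving out irradiated replicate 1, 2 or 3 left 20, 15 and 20 called members.

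Calls differed in how far they rested on single libraries. GABPB1-AS1, CD44-AS1, LAMA5-AS1, UCKL1-AS1 and EMC3-AS1 among the risers were called whichever of the 6 libraries was left out, and so were SERTAD4-AS1, TNFRSF10A-AS1, SBF2-AS1, TMPO-AS1, TGFB2-AS1, ZFPM2-AS1 and FGD5-AS1 among the fallers. Of these, CD44-AS1, LAMA5-AS1 and SBF2-AS1 were in the set only through the group in which they were high. Their calls are a description and gain no support from the omissions. For 3 members the call ended with 5 of the 6 omissions, which were TRAPPC12-AS1 (all but irradiated replicate 3, log2 changes 0.24 to 0.39), DBH-AS1 (all but control replicate 1, 0.21 to 0.38) and PRRT3-AS1 (all but irradiated replicate 1, -0.65 to -0.38). RBM12B-AS1 and LENG8-AS1 lost it without control replicates 2 or 3 or irradiated replicates 2 or 3, and over all 6 omissions their log2 changes were 0.39 to 0.72 and 0.34 to 0.50. TRIM52-AS1 lost it without replicate 1 or 2 of either group (-0.48 to -0.32 over the 6 omissions). Fewer libraries decided NCBP2-AS2, CARD8-AS1 (irradiated replicates 1 and 2), ZNF528-AS1 (irradiated replicates 1 and 3), TP73-AS1 and NRSN2-AS1 (irradiated replicate 2). RGMB-AS1 depended on control replicate 3 and irradiated replicates 2 and 3, AFAP1-AS1 on the 3 irradiated replicates and LRRC75A-AS1 on control replicate 2 and irradiated replicates 1 and 2.

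**Figure D3:**
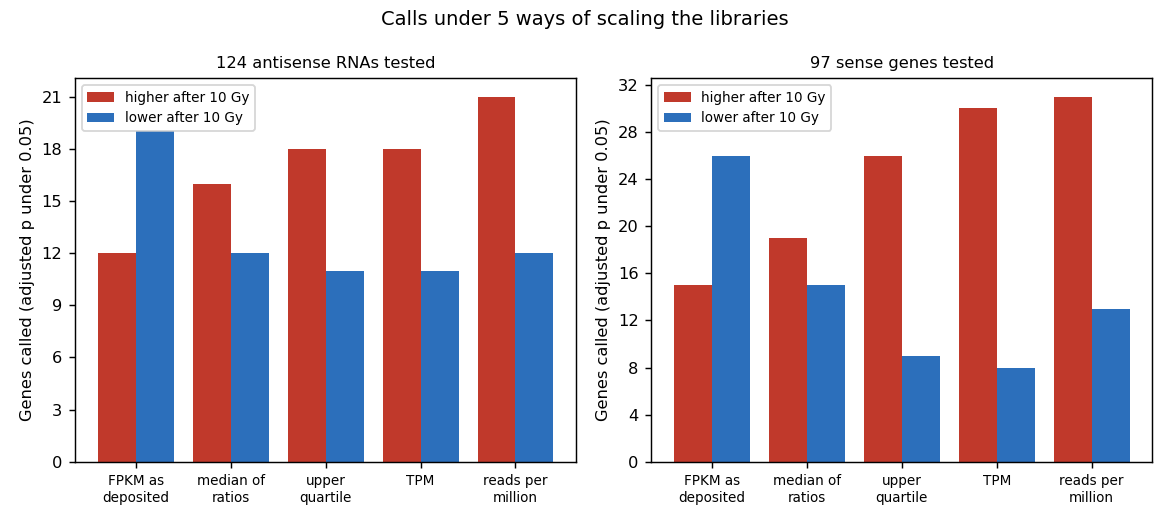
Number of antisense RNAs (left) and sense genes (right) called higher or lower after 10 Gy (y axis) under 5 scalings of the libraries (x axis). The deposited FPKM give 12 higher and 19 lower antisense RNAs, and TPM gives 18 and 11.

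The place of the antisense RNA against its sense gene differed between risers and fallers in number, which was not tested. Of 60 head to head members 5 rose and 11 fell, and of 28 tail to tail members 1 rose and 7 fell. All genes tested leaned the same way on this scale (11.9% higher and 23.7% lower), so that lean is not particular to these classes. Of the 28 members inside a sense gene 6 rose and 1 fell, and under TPM, upper quartile and median of ratios scaling 7 rose and 1 fell. LAMA5-AS1, CD44-AS1 and TRAPPC12-AS1 among these risers, and RGMB-AS1, the 1 that fell, were in the set only through the group in which they were high. Among the 22 members inside a sense gene at 1 FPKM or above in both groups 3 rose and 0 fell, beside 5 and 10 of 57 head to head and 0 and 6 of 22 tail to tail, counts taken after the values were seen. Head to head members were 9 higher and 7 lower under TPM and upper quartile scaling, and 7 and 7 under median of ratios, so their balance did not keep its direction. Tail to tail members were 2 higher and 3 lower under TPM. None of the 7 members that contain the sense gene was called. The median log2 change was near 0 in each of the 3 larger classes, at -0.02 head to head, -0.02 inside the sense gene and -0.04 tail to tail.

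Among the risers inside a sense gene, LAMA5-AS1 (ENSG00000228812, chr20:62352995-62356480, plus strand) lies in LAMA5, which encodes the laminin alpha 5 chain of basement membranes. It was at 0.389, 0.540 and 0.822 FPKM at 0 Gy and 2.70, 1.76 and 1.53 FPKM at 10 Gy. With a mean of 0.584 FPKM at 0 Gy it passed the level threshold through the irradiated group alone. Every irradiated library was higher, and the group means differed 3.42-fold, with a log2 change of 0.91 ± 0.16 (SE, n = 3 per group). LAMA5 rose as well, from 53.5, 55.7 and 61.5 to 80.2, 83.1 and 73.3 FPKM (log2 change 0.46 ± 0.06, limma adjusted p = 0.0025). The exons of LAMA5-AS1 shared 14.0% of their bases with LAMA5 exons, and it rested on 7 to 68 reads per library.

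CD44-AS1 (ENSG00000255443, chr11:35210343-35214985, minus strand) was at 0.639, 0.665 and 0.708 FPKM at 0 Gy and 1.25, 1.49 and 1.26 FPKM at 10 Gy. It thus doubled in mean, 1.99-fold, and passed the level threshold through the irradiated group (log2 change 0.48 ± 0.08). Only 6 to 22 reads per library lay behind it. CD44 went from 76.3, 81.4 and 78.1 to 73.7, 72.3 and 72.8 FPKM, a fall of 0.11 on the log2 scale (limma adjusted p = 0.044) that turned to 0.021 under TPM scaling.

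Smaller rises were measured in 4 other RNAs inside a sense gene. EMC3-AS1, in the gene of a subunit of the endoplasmic reticulum membrane protein complex, went from 2.11, 2.24 and 2.23 to 3.11, 2.91 and 2.79 FPKM (log2 change 0.30 ± 0.05, limma adjusted p = 0.0065). RBM12B-AS1 went from 1.80, 1.295 and 1.56 to 1.90, 2.85 and 3.54 FPKM and TRAPPC12-AS1, in the gene of a vesicle tethering subunit, from 0.671, 0.860 and 0.966 to 1.55, 1.27 and 1.07 FPKM. Neither group pair overlapped, but the lowest irradiated library of each lay close to the highest control library. DBH-AS1 went from 2.46, 1.73 and 2.16 to 2.56, 3.05 and 2.89 FPKM, beside a DBH (dopamine beta-hydroxylase) under 1 FPKM. RGMB-AS1, in the gene of a co-receptor of bone morphogenetic proteins, was the 1 that fell, from 1.32, 1.42 and 1.60 to 1.07, 0.701 and 0.808 FPKM, and RGMB fell from 6.45, 6.90 and 7.24 to 5.93, 5.38 and 6.04 FPKM.

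GABPB1-AS1 (ENSG00000244879, chr15:50354959-50372202, plus strand) and GABPB1 (ENSG00000104064, chr15:50275392-50355408, minus strand) are head to head and overlap by 450 bases. GABPB1 encodes the beta subunit of the ETS-family transcription factor GABP. The antisense RNA was at 1.53, 1.53 and 1.62 FPKM at 0 Gy and 2.25, 2.56 and 2.33 FPKM at 10 Gy, while GABPB1 was at 5.36, 5.50 and 5.39 FPKM and then 3.90, 4.06 and 3.74 FPKM. No library of one group reached the other in either gene. The antisense RNA rose (log2 change 0.40 ± 0.06, limma adjusted p = 0.0032) and the sense gene fell (log2 change -0.39 ± 0.04, limma adjusted p = 0.0012), with 404 to 1158 reads behind the antisense RNA. Both kept their call under each of the 15 alternatives, and the exons of GABPB1-AS1 shared 2.47% of their bases with GABPB1.

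Among the other head to head risers, UCKL1-AS1 was at 0.820, 1.17 and 1.40 FPKM at 0 Gy and 2.67, 2.48 and 2.21 FPKM at 10 Gy (log2 change 0.70 ± 0.11, limma adjusted p = 0.0037). UCKL1, related to the uridine and cytidine kinases, rose by less (0.18 ± 0.06, limma adjusted p = 0.048). ZNF528-AS1 and ZNF528, a zinc finger gene, leave from starts 83 bases apart. ZNF528-AS1 went from 2.38, 2.11 and 2.01 to 3.00, 2.63 and 2.96 FPKM and ZNF528 from 1.78, 1.63 and 1.91 to 2.15, 2.24 and 2.20 FPKM. Both rose, with log2 changes of 0.29 ± 0.07 and 0.21 ± 0.06 (limma adjusted p = 0.016 and 0.035), and these genes share no exon base. LENG8-AS1 went from 1.32, 1.10 and 1.07 to 1.47, 2.06 and 2.04 FPKM, with each irradiated library above each control library. The 1 tail to tail riser was TP73-AS1, at 0.962, 0.885 and 1.12 FPKM and then 1.40, 1.53 and 1.50 FPKM, next to TP73, a gene of the p53 family that was under 1 FPKM.

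The falls included pairs in which both genes fell. TGFB2-AS1 (ENSG00000232480, chr1:218344196-218345678, minus strand), whose values are given above, fell by 0.37 ± 0.07 on the log2 scale (limma adjusted p = 0.0076). TGFB2, which encodes the growth factor TGF-beta 2 and starts 557 bases away by GENCODE 29 (its RefSeq start, used for the stretch shown, lies inside TGFB2-AS1), fell from 16.1, 17.5 and 17.0 to 11.3, 11.7 and 12.6 FPKM (log2 change -0.47 ± 0.05, limma adjusted p = 9.8e-04). By the GENCODE 29 exons the pair shares no base, and the groups of both genes were apart. TMPO-AS1 (ENSG00000257167, chr12:98512973-98516422, minus strand) went from 2.70, 2.85 and 2.48 to 1.82, 2.02 and 1.65 FPKM. TMPO, which encodes a lamina-associated protein of the nuclear envelope, went from 51.9, 54.0 and 53.3 to 39.6, 40.1 and 40.7 FPKM. The log2 changes were -0.38 ± 0.07 and -0.39 ± 0.03 (limma adjusted p = 0.0074 and 5.3e-04), with 21.2% of the antisense exon bases shared with TMPO.

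SERTAD4-AS1 had the largest fall among the members, from 15.5, 14.5 and 12.2 to 8.16, 9.49 and 10.3 FPKM (log2 change -0.55 ± 0.10, limma adjusted p = 0.0065). SERTAD4 fell by less, from 6.48, 6.80 and 6.59 to 5.89, 6.05 and 5.81 FPKM. TNFRSF10A-AS1 went from 9.79, 8.17 and 7.97 to 5.99, 6.28 and 6.45 FPKM, and TNFRSF10A, a death receptor for TRAIL, from 15.6, 16.9 and 16.2 to 13.8, 13.1 and 13.2 FPKM. These 2 genes overlap at their 3′ ends, and 35.2% of the antisense exon bases are shared. RNASEH1-AS1 went from 8.16, 6.68 and 6.52 to 5.16, 5.26 and 6.26 FPKM together with RNASEH1, whose enzyme cuts RNA in RNA-DNA hybrids, from 7.38, 7.13 and 7.27 to 5.81, 5.81 and 6.87 FPKM.

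Other antisense RNAs fell beside a sense gene that was not called. TRIM52-AS1 went from 6.49, 5.93 and 5.05 to 3.99, 3.79 and 4.84 FPKM (log2 change -0.39 ± 0.10, limma adjusted p = 0.022), while TRIM52 was at 0.943, 0.962 and 1.18 and then 1.32, 1.42 and 1.37 FPKM (0.23 ± 0.07, limma adjusted p = 0.051). CARD8-AS1, head to head with an inflammasome sensor gene, went from 2.91, 3.47 and 2.65 to 2.06, 2.03 and 2.25 FPKM. SBF2-AS1 went from 1.45, 1.51 and 1.81 to 1.01, 0.991 and 0.965 FPKM, tail to tail with SBF2 at 2.81 to 3.15 FPKM over the 6 libraries. In all 3 the irradiated libraries lay under the controls. NRSN2-AS1 went from 2.68, 2.68 and 2.37 to 2.10, 1.57 and 1.48 FPKM and PRRT3-AS1 from 2.75, 3.07 and 3.38 to 2.72, 1.61 and 1.58 FPKM, the latter on 18 to 50 reads. ZFPM2-AS1, whose sense gene encodes a cofactor of GATA factors and was under 1 FPKM, went from 3.31, 3.15 and 3.08 to 2.27, 2.20 and 2.58 FPKM. The falls of the smallest size were FGD5-AS1 at -0.18, AFAP1-AS1 at -0.18, THAP9-AS1 at -0.17, ARRDC1-AS1 at -0.14 and LRRC75A-AS1 at -0.11, the last of which turned to 0.013 under TPM scaling.

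Of the 97 sense genes tested, 15 rose and 26 fell (42.3% called, median log2 change -0.02), near the 35.6% over all genes (11.9% higher and 23.7% lower, median -0.04). The balance was 30 higher and 8 lower under TPM scaling, beside 3127 and 1071 of all 12128 genes. Without control replicate 3 and without irradiated replicates 1, 2 and 3 the called sense genes numbered 27, 19, 19 and 27. Among the sense genes named here, SERTAD4, CD44 and UCKL1 (any library but control replicate 1), ZNF528 (any but control replicate 3), RGMB (control replicates 2 and 3, irradiated replicates 1 and 2) and EP300 and PTPRG (irradiated replicates 1 and 2) lost their call when the library given was left out, with no change of sign. In 98 pairs both genes were tested. Where the antisense RNA rose, the sense gene rose in 3 pairs, fell in 2 and was not called in 4. Where the antisense RNA fell, the sense gene fell in 6 pairs, rose in 0 and was not called in 10. Across the 98 pairs Pearson's r between the 2 log2 changes was 0.21 and Spearman's rho 0.13. These are given as a description because all pairs share the same 6 libraries and many overlap in exons, where reads may be shared. By class r was 0.28 over 51 head to head pairs, 0.33 over 21 pairs with the antisense RNA inside the sense gene and -0.23 over 22 tail to tail pairs. The 21 pairs include LAMA5-AS1 (0.91, with LAMA5 at 0.46), CD44-AS1, TRAPPC12-AS1, RGMB-AS1, ALG13-AS1 and FOXN3-AS1, which were in the set through 1 group only. No r was taken without such pairs, so these values describe the set as chosen and carry no result about the classes.

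**Figure D4:**
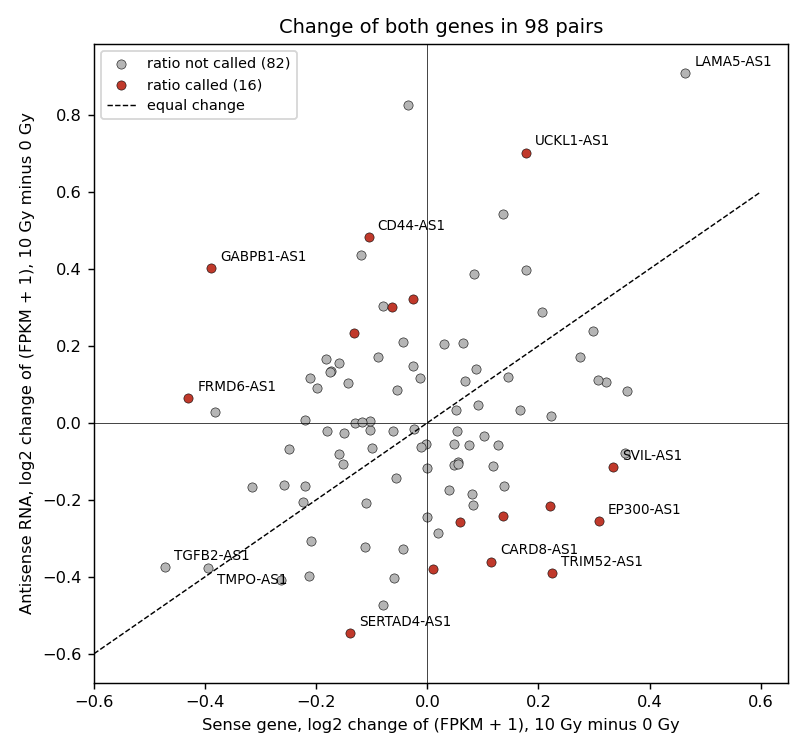
Log2 change of (FPKM + 1), 10 Gy minus 0 Gy, of the sense gene (x axis) and the antisense RNA (y axis) in 98 pairs, with a dashed line at equal change and red points where the ratio of the 2 was called. GABPB1-AS1 lies at 0.40 for the antisense RNA and -0.39 for the sense gene, while TMPO-AS1 and TGFB2-AS1 lie near the line.

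The ratio of antisense RNA to sense gene within each library does not depend on how the library was scaled, apart from the pseudocount. It was taken as log2(antisense FPKM + 1) minus log2(sense FPKM + 1) and tested by limma over 3221 pairs of neighbouring genes on opposite strands. In 16 of the 98 pairs the ratio changed, 7 toward the antisense RNA and 9 toward the sense gene, which is 16.3% against 23.5% of all neighbour pairs. The 16 include CD44-AS1, TRAPPC12-AS1, SBF2-AS1, ZBTB11-AS1, EP300-AS1 and PTPRG-AS1, in the set only through the group in which they were high. That choice pushes their ratios in the direction called, so the count and share are a description. The largest change was in GABPB1-AS1, where the log2 ratio was -1.33, -1.36 and -1.29 at 0 Gy and -0.59, -0.51 and -0.51 at 10 Gy (change 0.79 ± 0.06, limma adjusted p = 0.0024). For CD44-AS1 it was -5.56, -5.63 and -5.53 and then -5.05, -4.88 and -5.03 (change 0.59 ± 0.07). Both groups were apart in both pairs, and both kept their call under each of 16 alternatives. CD44-AS1 passed the level threshold only through the irradiated group, so its ratio change is given as a description.

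Toward the antisense RNA there were also UCKL1-AS1 (0.52 ± 0.14, limma adjusted p = 0.042) and FRMD6-AS1 (0.49 ± 0.08, limma adjusted p = 0.012). In the FRMD6 pair the antisense RNA, on 38 to 98 reads, was at 1.37, 1.11 and 1.31 and then 1.47, 1.33 and 1.29 FPKM and was not called. FRMD6, a FERM domain gene of the Hippo pathway, fell from 36.6, 38.7 and 37.6 to 27.8, 26.9 and 28.3 FPKM. EMC3-AS1 (0.36), TRAPPC12-AS1 (0.35) and SREBF2-AS1 (0.37) made up the 7. TRAPPC12-AS1 too was in the set only through the irradiated group.

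Toward the sense gene, TRIM52-AS1 had the largest change (-0.62 ± 0.14, limma adjusted p = 0.028), with CARD8-AS1 (-0.48), SERTAD4-AS1 (-0.41), SBF2-AS1 (-0.39) and ZBTB11-AS1 (-0.38) among the other pairs whose antisense RNA fell. In 3 pairs the sense gene was the one that was called. SVIL, which encodes the actin-binding protein supervillin, rose from 19.4, 20.7 and 19.6 to 25.2, 25.8 and 25.1 FPKM beside SVIL-AS1 at 5.92, 5.97 and 6.11 and then 5.70, 5.28 and 5.43 FPKM (ratio change -0.45 ± 0.06, limma adjusted p = 0.0080). EP300, a histone acetyltransferase gene, rose from 6.62, 8.26 and 8.40 to 10.1, 9.82 and 9.53 FPKM beside EP300-AS1 on 6 to 11 reads (ratio change -0.56 ± 0.12). PTPRG, a receptor tyrosine phosphatase gene, rose by 0.22 beside PTPRG-AS1 (ratio change -0.44 ± 0.11). SBF2-AS1, ZBTB11-AS1, EP300-AS1 and PTPRG-AS1 were under 1 FPKM at 10 Gy and passed the level threshold through the controls. Their ratio changes are given as a description. VPS9D1-AS1 (-0.32) completed the 9, with neither gene called. With irradiated replicate 1 or 2 left out 7 and 4 pairs were called. Of the 10 largest ratio changes, those of GABPB1-AS1, CD44-AS1 and SVIL-AS1 were called whichever library was left out. FRMD6-AS1 lost its call without irradiated replicate 2, CARD8-AS1 without irradiated replicate 1 or 2 and EP300-AS1 without irradiated replicate 1 or 3. TRIM52-AS1, UCKL1-AS1 and PTPRG-AS1 lost it with 4 of the 6 omissions and SERTAD4-AS1 with 5, and over all 6 omissions their ratio changes were -0.75 to -0.52, 0.36 to 0.61, -0.52 to -0.35 and -0.49 to -0.32. Among the 28 pairs whose antisense exons share no base with the opposite strand 4 were called, beside 23.5% of all neighbour pairs. Of these 4, TRAPPC12-AS1 and EP300-AS1 were in the set through 1 group only.

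**Figure D5:**
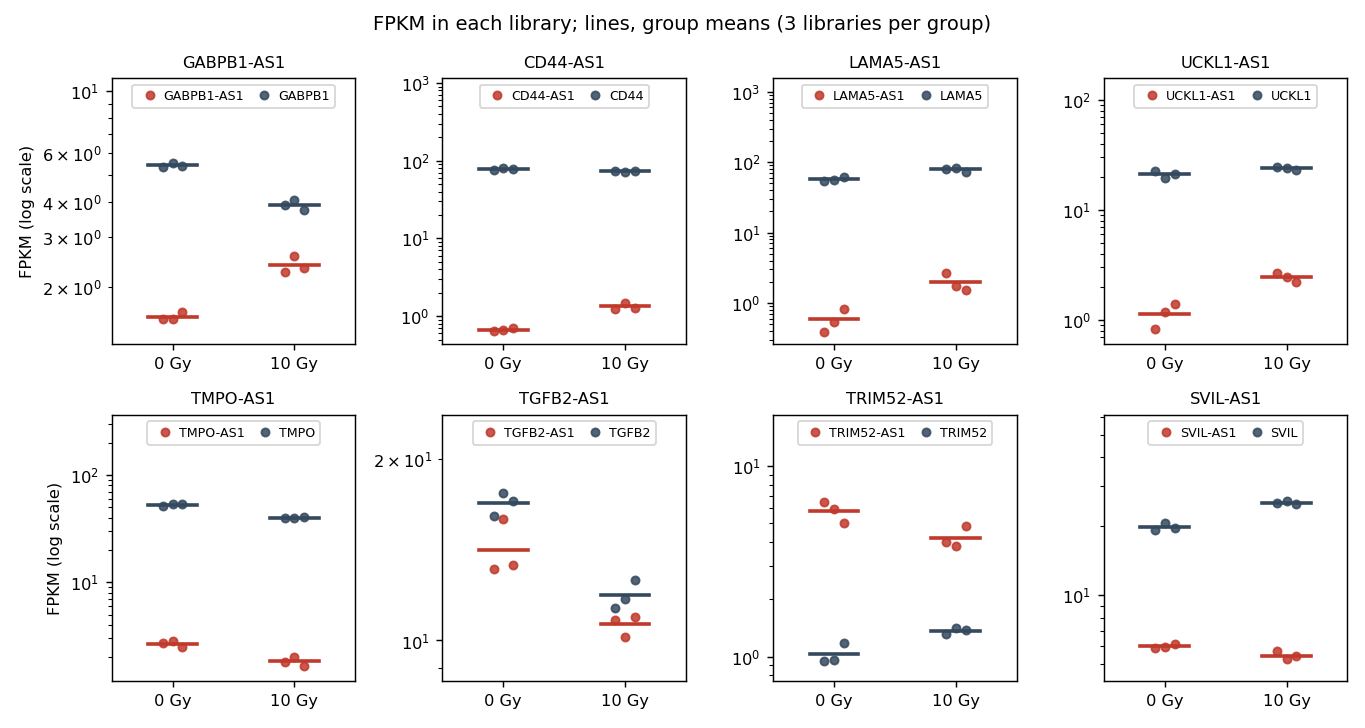
FPKM in each of the 6 libraries (y axis, log scale, x axis dose) for 8 antisense RNAs (red) and their sense genes (dark), with lines at the group means. GABPB1-AS1 rises from a mean of 1.56 to 2.38 FPKM while GABPB1 falls, and TMPO-AS1 and TGFB2-AS1 fall together with their sense genes.

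Genes that process or sense such transcripts were counted from 1 list, which holds the RNA exosome and its nuclear adaptors, cap-binding and 5′ exonuclease genes, termination factors and genes that bind, edit or sense double-stranded RNA. Of 48 symbols listed 45 had a row in the table, and all 45 were tested. Of these, 6 rose and 18 fell (53.3% called, median log2 change -0.10), against 35.6% of all genes called, 11.9% higher and 23.7% lower, with a median of -0.04. Of the 10 exosome subunit genes EXOSC1 to EXOSC10, 9 fell, with the largest changes in EXOSC8 (-0.43 ± 0.03, limma adjusted p = 5.9e-04), EXOSC7 (-0.34 ± 0.04) and EXOSC5 (-0.32 ± 0.05), and EXOSC4 had a log2 change of -0.10 (limma adjusted p = 0.40). The exosome cofactor gene MPHOSPH6 fell by 0.39 and PABPN1, of the nuclear poly(A) binding protein, by 0.33. Other exosome and adaptor genes of the list did not all follow. DIS3 (0.00096), C1D (0.015), MTREX (0.10), RBM7 (-0.11), ZCCHC7 (-0.14) and ZC3H18 (-0.07) were not called. ZFC3H1 rose (0.19 ± 0.05, limma adjusted p = 0.028), while ZCCHC8 (-0.18), SRRT (-0.20) and NCBP1 (-0.14) fell. With TPM, upper quartile, median of ratios and total read scaling 5 of the 10 subunit genes were called lower and 0 higher. Among the risers were MAVS (0.30 ± 0.04, limma adjusted p = 0.0014), the mitochondrial adaptor of double-stranded RNA sensing, and XRN1 (0.29 ± 0.05), the cytoplasmic 5′ exonuclease. For the whole list TPM scaling gave 12 higher and 10 lower, beside 3127 and 1071 of all 12128 genes. NCBP2, the cap-binding subunit gene next to NCBP2-AS2, was at 17.6, 16.9 and 17.1 and then 15.2, 16.4 and 16.0 FPKM (log2 change -0.11 ± 0.04, limma adjusted p = 0.055), while NCBP2-AS2 fell (-0.32 ± 0.07, limma adjusted p = 0.015).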

How the data were processed

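Expression was measured by RNA sequencing in 6 libraries of MDA-MB-231 cells, 3 at 0 Gy and 3 at 24 h after 10 Gy, grouped by the treatment label. The authors deposited FPKM values per gene, which the sequencing provider made after polyA enrichment. The submitters' processing notes name HISAT2 and GRCh38, and the counting program and strand setting are not given in the sources used here. Gene identifiers, spans and exon lengths of all 58735 genes equalled GENCODE 29. Multiplying FPKM by gene length and library depth gave whole reads (within 0.05) for 100% of values above 0, summing to 15643641 to 28861781 per library. The depth each library was divided by was 0.973 to 1.04 times these reads. At this depth a gene of 1 FPKM rests on few reads, and reads are not independent molecules.

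Antisense RNAs were the genes whose symbol ends in AS and a number that averaged 1 FPKM or more, and the sense gene was the symbol before it. These members, the gene list and the rule for named genes were chosen with earlier results of these data known. Genes averaging 1 FPKM or more were tested on log2(FPKM + 1) with limma 3.58.1 in R 4.3.3 (eBayes with an intensity trend, Benjamini-Hochberg adjusted p under 0.05). A change on this scale understates that of low genes. Ratios were tested without a trend over 3221 pairs, 3220 of genes on opposite strands within 5000 bases and 1 member pair farther apart. The genes named were the 10 highest members, the called members without overlap between groups (at most 12 per direction by size), 3 on each side of the level threshold, their sense genes, up to 10 pairs with the largest called ratio change and up to 8 called genes of the list. One of these pairs is not reported here. Others named were added after their values were seen. The fits were tested on simulated data. Alternatives covered the pseudocount, the level filter, 4 other scalings, a replicate block, each library left out and the eBayes settings. Python 3.11.15 with matplotlib 3.10.9 drew the figures.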

Additional observations from a re-analysis of the deposited data

How the results depend on the processing

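With 3 libraries per group and 98.8 reads behind the median member, small changes could be missed, and calls moved with the libraries used. Leaving out 1 library at a time gave 2660 to 3993 called genes in all (4317 with all 6), 15 to 27 called antisense RNAs (31), 19 to 35 sense genes (41), 4 to 16 pairs with a changed ratio (16) and 16 to 21 genes of the RNA decay list (24). Without irradiated replicate 2 each count was at its lowest, jointly with irradiated replicate 1 for sense genes. A mean of at least 5 FPKM left 12 of 20 antisense RNAs and 3 of 13 pairs called, with fewer genes tested. The shares over all genes and pairs at that filter were not set beside these counts. In the main fit every called member at 5 FPKM or above fell, and the risers had means of no more than 2.56 FPKM (EMC3-AS1). Falls were also the larger share over all 12128 genes tested (23.7% lower, 11.9% higher). No share over all genes at 5 FPKM or above was taken, so no pattern by level is drawn from this. A mean of at least 0.1 FPKM left 9 pairs. Among members whose exons share no base with the opposite strand, 7 of 33 antisense RNAs and 4 of 28 pairs were called, a choice made after the values were seen. The shares were 35.6% over all genes and 23.5% over all neighbour pairs. TRAPPC12-AS1 in both counts and EP300-AS1 among the pairs were in the set only through the group in which they were high. The correlations of deviations between libraries of the same replicate number were -0.04, -0.03 and -0.10, beside -0.05 to 0.09 between libraries of different numbers. They gave no sign of pairing by number but cannot show whether such libraries shared a culture or batch. A replicate block gave 20 antisense RNAs and 4 pairs. Under TPM scaling the log2 change of LRRC75A-AS1 turned to 0.0131, that of CD44 to 0.0210 and that of WAC, not called with the deposited values, to 0.120. Of 83 single results for named genes and pairs, 59 were called, and 28 of these kept their call under every alternative run. Over 1298 values under alternatives, 162 lost a call and 28 gained one.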

Other observations

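Antisense-named genes under 1 FPKM were tested with all 20214 genes at a mean of at least 0.1 FPKM, of which 18.7% were called. Of 350 such genes, 3 were called and all were higher after 10 Gy, with a median log2 change over the 350 of 0.05. C1RL-AS1, head to head with the complement protease gene C1RL, went from 0.416, 0.545 and 0.470 to 0.845, 0.863 and 0.811 FPKM, on 51 to 154 reads (log2 change 0.32 ± 0.06, limma adjusted p = 0.019). SPON1-AS1 went from 1, 0 and 1 reads to 5, 4 and 5 reads, and BICRA-AS1 from 0 reads in each control library to 4, 2 and 2 reads. BICRA-AS1 thus passed the floor of 0.1 FPKM through the irradiated group alone, so it could only be higher. All 3 were named after their values were seen.

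ALG13-AS1, inside ALG13, had the largest log2 change among members that were not called, 0.83 ± 0.51 (limma adjusted p = 0.24). It was at 0, 0 and 1.66 FPKM at 0 Gy and 2.40, 2.53 and 0.237 FPKM at 10 Gy on 0 to 14 reads, so its groups overlapped.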
